A study of Mus musculus with 11 samples.

Results

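Pdzrn4, Sphkap and Itm2a are 3 genes that ranked high when keratinocytes carrying the surface protein CD34 were compared with CD34- keratinocytes of mouse skin. None of the 3 has a well-described function in skin. They were chosen for that difference on these same arrays, so their differences between the fractions are given as a description and without a test. All probe sets annotated to exactly 1 of these symbols were taken, which gave 5 of 34945 probe sets with 1 gene symbol (1 for Pdzrn4, 2 for Sphkap and 2 for Itm2a). Among 11891 genes, each represented by its brightest probe set, Pdzrn4 held place 2 by CD34+ minus CD34- log2 difference, Itm2a place 5 and Sphkap place 6. Place 1 was Cd34 itself, and Ogn (5.71) and Il31ra (5.58) held places 3 and 4. The genes just after Sphkap were Fgf18 (4.83) and Lmcd1 (4.81).

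There were 5 CD34+ and 6 CD34- samples, each on its own array. The cells were keratinocytes of back skin, separated with magnetic beads after labelling with an antibody to CD34, a marker of the hair follicle bulge. All 11 samples came from K5-myrAkt(L84) mice, a single transgenic line in which the keratin 5 promoter drives a membrane-targeted, active form of Akt in basal keratinocytes. The cell type label calls both fractions hair follicle stem cells, while the design text uses that name for the CD34+ fraction alone. Both fractions carry the transgene, and skin without it was not analysed here. The sources used here give no age, hair cycle stage or number of mice behind an array, so the spread between arrays may be partly technical. Total RNA was measured on single-channel expression arrays, and each value is the log2 of a MAS5 signal.

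Pdzrn4 encodes a protein with a RING domain and PDZ domains, of the small LNX and PDZRN family of E3 ubiquitin ligases, which attach ubiquitin to partners held by the PDZ domains. Sphkap encodes an A-kinase anchoring protein, one of the scaffolds that hold the cAMP-dependent protein kinase (PKA) at set places in the cell. It binds the type I regulatory subunits of PKA, was found as a partner of sphingosine kinase, and is best known from heart and neurons. Itm2a encodes a single-pass membrane protein with a BRICHOS domain, a fold that assists the folding of its own precursor, and has been studied in cartilage, muscle and developing T cells.

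The sequence around the annotated starts of the 3 genes is shown because the genes were high in the same fraction and scattered together across arrays. Each window of RefSeq sequence (GRCm38.p6) holds 250 bases before and 50 bases after a gene start and is printed on the gene's strand, with the letters of any searched motif in capitals. RefSeq gave 2 starts for Pdzrn4 and 1 for each of the others, so that all 3 genes matched. The windows are chr15:92396560-92396859 (+) and chr15:92596859-92597158 (+) for Pdzrn4, chr1:83408151-83408450 (-) for Sphkap and chrX:107403311-107403610 (-) for Itm2a.
Pdzrn4, upstream start: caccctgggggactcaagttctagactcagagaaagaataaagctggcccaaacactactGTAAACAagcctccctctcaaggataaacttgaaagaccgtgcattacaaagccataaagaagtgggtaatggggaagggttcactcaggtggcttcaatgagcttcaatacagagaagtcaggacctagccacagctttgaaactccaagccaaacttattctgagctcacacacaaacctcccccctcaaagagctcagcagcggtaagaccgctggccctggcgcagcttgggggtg
Pdzrn4, downstream start: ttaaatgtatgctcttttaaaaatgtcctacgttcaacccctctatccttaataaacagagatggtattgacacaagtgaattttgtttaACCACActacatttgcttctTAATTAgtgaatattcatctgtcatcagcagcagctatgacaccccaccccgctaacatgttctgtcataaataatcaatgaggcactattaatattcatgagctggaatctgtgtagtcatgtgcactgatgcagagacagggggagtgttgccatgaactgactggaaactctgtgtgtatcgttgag
Sphkap: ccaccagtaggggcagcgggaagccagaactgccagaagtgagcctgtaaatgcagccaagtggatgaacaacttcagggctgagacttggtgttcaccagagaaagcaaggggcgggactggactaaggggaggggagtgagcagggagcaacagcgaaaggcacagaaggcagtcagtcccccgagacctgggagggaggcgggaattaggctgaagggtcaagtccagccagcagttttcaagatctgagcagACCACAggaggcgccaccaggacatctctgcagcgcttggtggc
Itm2a: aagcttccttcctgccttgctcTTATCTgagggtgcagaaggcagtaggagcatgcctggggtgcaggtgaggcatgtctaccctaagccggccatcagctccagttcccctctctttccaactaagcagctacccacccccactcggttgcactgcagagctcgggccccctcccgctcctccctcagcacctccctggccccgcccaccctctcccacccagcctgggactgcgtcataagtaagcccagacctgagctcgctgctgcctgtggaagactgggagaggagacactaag

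The windows differed in base composition. The GC content was 50.3% and 39.3% at the starts of Pdzrn4, 59.0% at Sphkap and 62.0% at Itm2a, against a median of 52.7% over 32851 such windows. Both strands were searched for 12 short motifs of factor families. The FOX motif GTAAACA lay at the upstream Pdzrn4 start (3.65% of all windows hold it). The homeodomain motif TAATTA (5.29% of windows) and the RUNX motif TGTGGT, on the opposite strand, lay at the downstream one. The RUNX motif (16.8% of windows), also on the opposite strand, was the only match at Sphkap, at bases 257 to 262 of the window. The GATA motif AGATAA (11.2% of windows), on the opposite strand, was the only match at Itm2a. No matches overlapped. The TCF/LEF motif CTTTGAT and the NFAT motif TGGAAAA, held by 3.73% and 6.73% of all windows, were not found in these 4. Nor were the SOX motif ACAATG (12.6% of windows), the T-box motif AGGTGT (13.7%) and the AP-1 motif TGANTCA (7.81%). The TEAD motif GGAATG (14.7% of windows) and the core of the cAMP response element, TGACGT (7.51%), were also missing from them. The TATA box TATAAA (13.6% of windows) had no match either, and no motif was shared by all 4 windows.

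Some arrays stood apart. On CD34- arrays 1 and 2 the summed linear signal of 6 melanocyte marker genes was 22790 and 25452, against 4660 to 6471 on the other CD34- arrays, and that of 6 T cell markers was 1460 and 1470 against 2750 to 2937. CD34+ array 1 had the highest actin ratio (5.25), which is the log2 signal of the 3-prime minus the 5-prime actin control and rises as RNA or its labelled copies become shorter. That ratio was 3.95 ± 0.99 (SD, n = 5) in CD34+ cells and 2.43 ± 0.19 (SD, n = 6) in CD34- cells, with no overlap. Krt5 and Krt14, keratins of basal keratinocytes, were bright in both fractions, with mean log2 signals of 14.94 and 15.02 for Krt5 and 14.05 and 14.36 for Krt14 in CD34+ and CD34- cells. On the brightest probe set, neither passed the test (differences of -0.07 and -0.31), while a second probe set of Krt14 fell by 1.00 (limma adjusted p = 0.00963). After quantile normalization both were called lower, by -0.45 and -0.50.

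All CD34+ arrays lay above all CD34- arrays for 4 of the 5 probe sets, and 7.20% of the probe sets that passed the brightness filter behaved in that way (6.20% the other way round). Nothing is read from that count, since the same contrast chose the genes. Those 4 probe sets passed the filter on mean signal (at least 6.06), in part through the fraction in which they were high, and the fifth, 1431069_at of Sphkap, did not. The order of the arrays was also shared: within the CD34+ fraction the 4 separated probe sets were highest on array 1, intermediate on arrays 4 and 5, and lowest on arrays 2 and 3, as was Cd34.

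**Figure D1:**
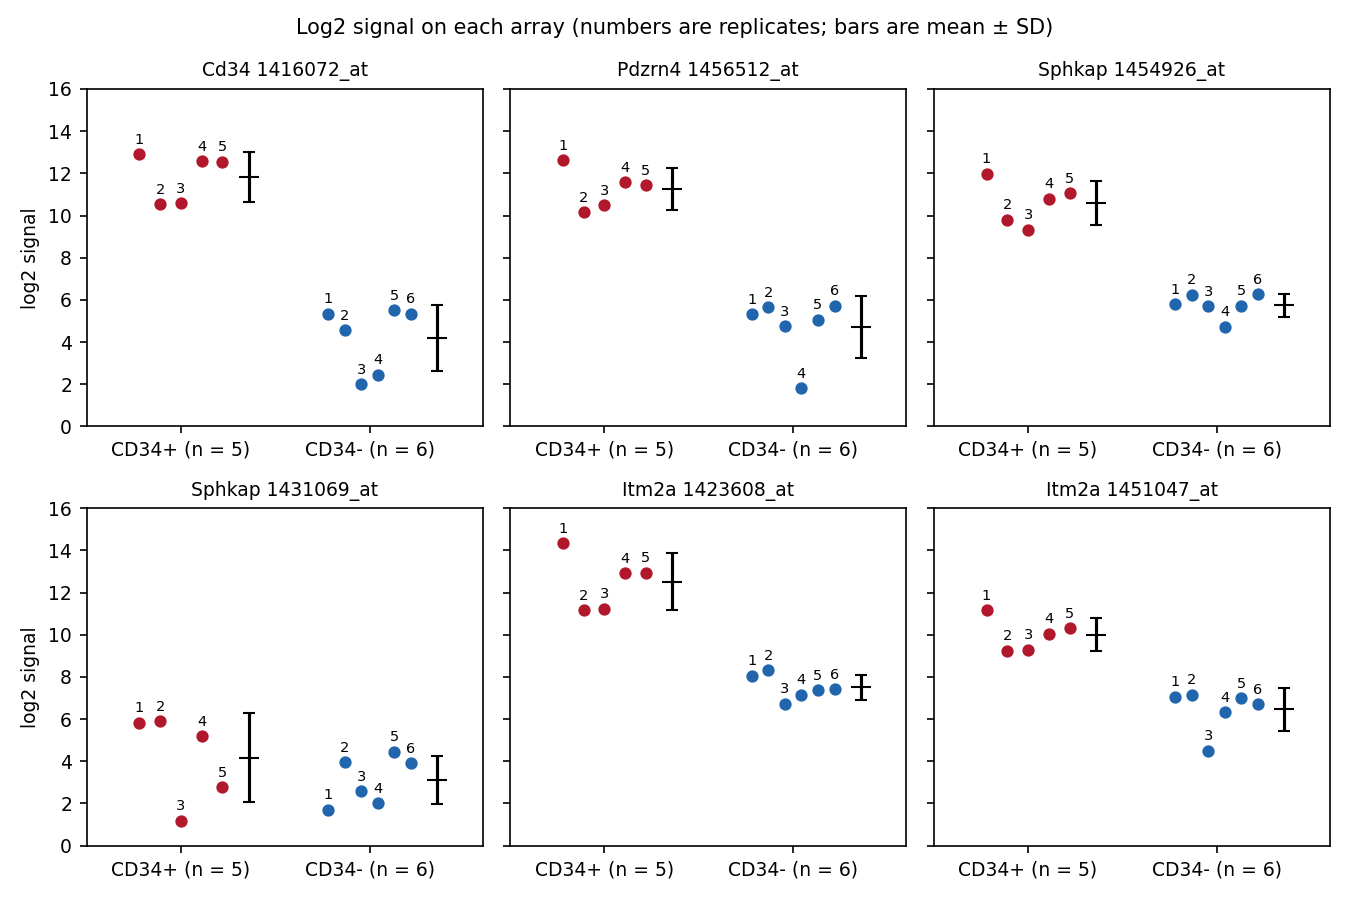
Log2 signal (vertical axis) of Cd34 and of the 5 probe sets of Pdzrn4, Sphkap and Itm2a on each of 5 CD34+ and 6 CD34- arrays; numbers are replicates and black bars are mean ± SD. The fractions are separated for all but probe set 1431069_at of Sphkap, and in each separated panel CD34+ array 1 is the highest point.

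Pdzrn4, read by 1 probe set (1456512_at), had log2 signals of 12.63, 10.15, 10.48, 11.57 and 11.43 on CD34+ arrays 1 to 5. The values of CD34- arrays 1 to 6 were 5.32, 5.66, 4.76, 1.83, 5.06 and 5.73. The lowest CD34+ array was 4.42 log2 units above the highest CD34- array. The mean was 11.25 ± 0.98 (SD, n = 5) against 4.73 ± 1.47 (SD, n = 6), a difference of 6.53 with a standard error of 0.74 from the SDs of both fractions. In CD34+ cells the probe set was brighter than 84.8% to 97.3% of probe sets with 1 symbol, and in CD34- cells it lay at the 4.18th to 36.9th percentile, where signal is mostly background. Dim signals were then lifted to the 40th percentile of their array, which applied to all 6 CD34- arrays and to no CD34+ array. With that floor Pdzrn4 was 36.8-fold higher in CD34+ cells (a log2 difference of 5.20). This size depends on the floor, and with an offset of 50 on the linear signal the log2 difference was 4.92. The wide spread of the CD34- arrays came from array 4, which alone was under 4.

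The brighter Sphkap probe set (1454926_at) had log2 signals of 11.98, 9.81, 9.33, 10.80 and 11.07 on CD34+ arrays 1 to 5 and of 5.79, 6.25, 5.69, 4.74, 5.71 and 6.27 on CD34- arrays 1 to 6. The gap between the nearest arrays of the fractions was 3.06. The means were 10.60 ± 1.05 (SD, n = 5) and 5.74 ± 0.56 (SD, n = 6), and the difference was 4.85 (SE 0.52). On 4 of 6 CD34- arrays the signal was under the 40th percentile, and with these raised Sphkap was 22.3-fold higher in CD34+ cells. With an offset of 50 on the linear signal the log2 difference was 3.94. The other Sphkap probe set (1431069_at) read 5.84, 5.91, 1.19, 5.18 and 2.76 on CD34+ arrays and 1.71 to 4.47 on CD34- arrays. It was under the 40th percentile on every array, the fractions overlapped, and its difference of 1.07 (SE 1.05) was no larger than the scatter. This probe set was too dim to give a level of Sphkap in either fraction.

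Both probe sets of Itm2a were high in CD34+ cells. The brighter (1423608_at) read 14.34, 11.17, 11.23, 12.91 and 12.95 on CD34+ arrays 1 to 5, where it was brighter than 92.2% to 99.5% of probe sets. On CD34- arrays 1 to 6 it read 8.05, 8.33, 6.72, 7.16, 7.37 and 7.42, which is the middle of the signal range (48.8th to 65.5th percentile). No array was under the 40th percentile, so that Itm2a was the one gene of the 3 with a level above that mark on all arrays. The means were 12.52 ± 1.34 (SD, n = 5) and 7.51 ± 0.59 (SD, n = 6), a difference of 5.01 (SE 0.64), or 32.2-fold. The second probe set (1451047_at) read 11.15, 9.25, 9.29, 10.06 and 10.30 on CD34+ arrays and 7.06, 7.16, 4.51, 6.34, 6.99 and 6.72 on CD34- arrays. Its difference was 3.55 (SE 0.54), with a gap of 2.09 between the nearest arrays, and 3.30 with the 1 dim CD34- value raised to the 40th percentile. On CD34- arrays both Itm2a probe sets were highest on arrays 1 and 2, the arrays with the high melanocyte sums. Without these arrays the differences were 5.35 and 3.87, and the part of melanocytes in the values was not tested.

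The difference of RNA length between the fractions ran in parallel with these values. When the fit also held the actin ratio, the differences were 6.09 for Pdzrn4 (limma SE 0.98), 4.51 for the brighter Sphkap probe set (limma SE 0.65), and 4.67 (limma SE 0.75) and 3.08 (limma SE 0.71) for the probe sets of Itm2a. That of the dim Sphkap probe set was -0.39 (limma SE 1.37). The ratio did not overlap between the fractions, so this fit cannot separate it well from the contrast. Nothing about the cause of the differences is read from these values. Within the fractions, correlations with the actin ratio lay between 0.15 and 0.40 for the 5 probe sets (lowest p = 0.359, exact permutation within fractions, n = 11, adjusted p = 0.822 for each over 6 correlations). Without CD34+ arrays 1 and 4, r was -0.11 for Pdzrn4, -0.38 and 0.54 for the brighter and the dim Sphkap probe set, and -0.55 and -0.10 for those of Itm2a. Over the 6 CD34- arrays alone r was 0.37 to 0.61 (lowest exact permutation adjusted p = 0.403). The highest rho there was 0.89, for Pdzrn4 and the brighter Sphkap probe set (exact permutation p = 0.0333 each, not adjusted).

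Cd34 (probe set 1416072_at), the transcript of the protein used for the separation, had log2 signals of 12.92, 10.54, 10.59, 12.58 and 12.55 on CD34+ arrays and of 5.35, 4.56, 2.00, 2.45, 5.50 and 5.34 on CD34- arrays. Since the fractions form separate clusters, no coefficient over the pooled levels is tested. Instead the mean of its own fraction was subtracted from each array, which removes the contrast that chose the genes, and the remaining deviations over 11 arrays were correlated. Pdzrn4 followed Cd34 with Pearson r = 0.74 (p = 0.00877) and Spearman rho = 0.73 (p = 0.0111), by two-sided exact permutation within fractions. For the brighter Sphkap probe set r was 0.70 (exact permutation p = 0.0151) and rho 0.55 (p = 0.0741). For Itm2a r was 0.71 (exact permutation p = 0.0113) and rho 0.55 (p = 0.0605) on 1423608_at, and r was 0.85 (p = 0.00126) and rho 0.71 (p = 0.0176) on 1451047_at. The dim Sphkap probe set gave r = 0.36 (exact permutation p = 0.25) and rho = 0.18 (p = 0.51). Over these 5 correlations the Benjamini-Hochberg adjusted exact permutation p of r was 0.0188 for Pdzrn4, for 1454926_at of Sphkap and for 1423608_at of Itm2a, 0.00631 for 1451047_at and 0.25 for the dim probe set. For rho it was 0.0439 for Pdzrn4 and 1451047_at, 0.0926 for 1454926_at and 1423608_at, and 0.51 for the dim probe set. An array was on the same side of its fraction's mean as for Cd34 in 10 of 11 cases for Pdzrn4 and for 1454926_at, in 9 for 1423608_at, in 11 for 1451047_at and in 8 for the dim probe set.

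**Figure D2:**
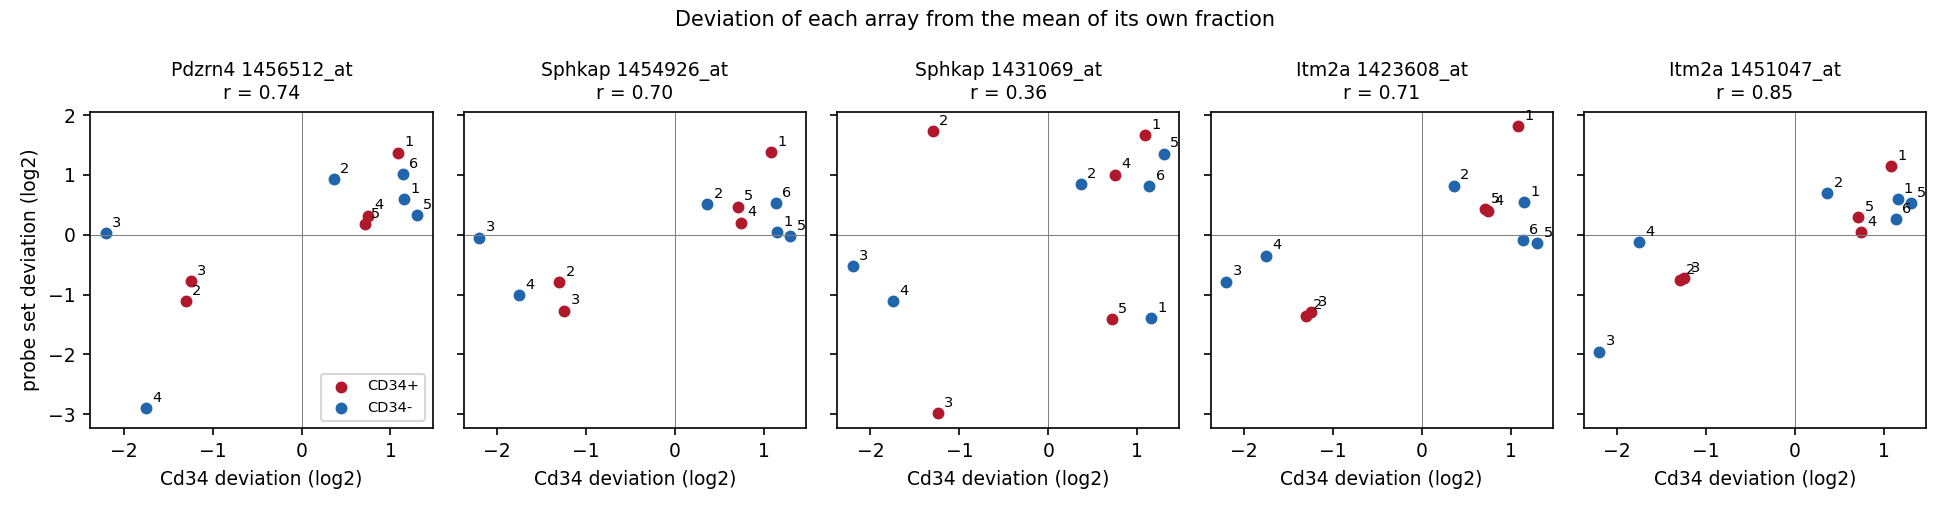
Deviation of each array from the mean of its own fraction for Cd34 (horizontal axis, log2) and for each probe set (vertical axis, log2), red for 5 CD34+ and blue for 6 CD34- arrays, numbered by replicate. CD34+ arrays 2 and 3 lie at the lower left and array 1 at the upper right for the 4 brighter probe sets, whose r lies between 0.70 and 0.85, while the dim Sphkap probe set (r = 0.36) is scattered.

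The correlation with Cd34 depended on which arrays were used. Without the 2 arrays farthest from the median of the Cd34 deviations, CD34- arrays 3 and 4, r was 0.81 for Pdzrn4, 0.82 for Sphkap, and 0.80 and 0.82 for Itm2a on 9 arrays. These values no longer passed the threshold (exact permutation adjusted p = 0.0929 for each), and why the calls were lost was not tested. Over the 6 CD34- arrays alone, r was 0.66 for Pdzrn4, 0.61 for 1454926_at of Sphkap, 0.64 for 1423608_at and 0.82 for 1451047_at of Itm2a, and the lowest adjusted p over the 5 probe sets was 0.146 (exact permutation). That relation rested on CD34- arrays 3 and 4, since on the remaining 4 arrays r was between -0.80 and -0.57 for these probe sets. On CD34- arrays Cd34 lay at the 5.53rd to 33.9th percentile, so that its scatter there, like that of Pdzrn4 and mostly that of Sphkap, is that of dim values. The 5 CD34+ arrays are too few for a coefficient of their own, and their order is given above.

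The 3 genes also scattered with each other. Over deviations from the fraction means on 11 arrays, r was 0.84 between Pdzrn4 and Sphkap (exact permutation adjusted p = 0.00135 over 3 pairs), 0.86 between Sphkap and Itm2a (adjusted p = 0.0102) and 0.63 between Pdzrn4 and Itm2a (adjusted p = 0.0155), with raw exact permutation p of 4.51e-04, 0.00677 and 0.0155 and rho of 0.89, 0.84 and 0.80 (exact permutation p = 3.94e-04, 0.00617 and 0.00403, adjusted 0.00118, 0.00617 and 0.00604). Over the 6 CD34- arrays alone r was 0.96, 0.48 and 0.45 (exact permutation adjusted p = 0.00417, 0.424 and 0.424 over the 3 pairs). Pdzrn4 was under the 40th percentile on all 6 of these arrays and Sphkap on 4, so these coefficients rest mostly on dim values. Without the 2 arrays farthest from the median of the first-named gene, r was 0.94 for Pdzrn4 and Sphkap, 0.69 for Sphkap and Itm2a and 0.92 for Pdzrn4 and Itm2a. Both correlations with Itm2a lost their call without CD34+ array 1 (r = 0.76 with Sphkap and 0.53 with Pdzrn4, exact permutation adjusted p = 0.0708 for each). That array had the highest signal of all 3 genes.

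Following Cd34 within the fractions was common among genes that are high in CD34+ cells. Of 11890 other genes, 0.849% had an r with Cd34 at least as high as that of Pdzrn4, 1.31% as that of Sphkap and 1.24% as that of Itm2a, and the median r was -0.01. Among 137 other genes with a log2 difference of at least 2, however, the median r was 0.53, and 23 had an r at least as high as that of Pdzrn4, 29 as that of Sphkap and 27 as that of Itm2a. The place of the 3 genes among these is a description.

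The genes most like each of the 3 were named by Pearson r over 11 arrays, once on levels, where r mostly reflects the step between the fractions, and once on deviations from the fraction means. The named genes are the highest of 11890 on each measure, so their high r follows in part from that choice. On levels, Pdzrn4 was most like the matrix glycoprotein gene Sparc (0.99), Sphkap (0.98), the adhesion molecule gene Sdk2 (0.98), the guidance receptor gene Robo2 (0.98) and Ptprv (0.97), and Cd34 came at place 7 (0.97). On deviations the nearest were Enox1 (0.94), Sparc (0.93), Il18bp (0.92), Ubald1 (0.91) and Pxdn (0.88), with Sphkap at place 14 and Cd34 at place 63. Ubald1 and Pxdn themselves hardly differed between the fractions (log2 differences of -0.01 and 0.38).

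Sphkap was most like Minar2 (0.99), Sdk2 (0.99), the semaphorin gene Sema3e (0.99), Plpp1 (0.99) and the collagen VI gene Col6a2 (0.99) on levels, with Cd34 at place 40 (0.97). On deviations its nearest genes were Tenm3 (0.97), the hedgehog effector gene Gli3 (0.96), Klhl22 (0.96), Minar2 (0.93) and Map3k2 (0.93), with Itm2a at place 63 and Cd34 at place 526. Map3k2 itself hardly differed between the fractions (log2 difference of 0.11).

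The genes most like Itm2a included several that encode collagen chains. On levels they were Col1a2 (0.99), Shisa2 (0.99), Col6a2 (0.99), Col5a2 (0.99) and Gpm6b (0.99), with Sphkap at place 15 and Cd34 at place 70 (0.97). On deviations they were Col6a1 (0.97), Zdhhc17 (0.97), Slc39a10 (0.97), Samd9l (0.97) and Col1a2 (0.96), with Cd34 at place 862. Zdhhc17 and Samd9l themselves hardly differed between the fractions (log2 differences of -0.21 and 0.03).

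Markers of other cells moved with the fractions in which the 3 genes were high. Of 8 fibroblast markers 4 passed the brightness filter and all 4 rose in CD34+ cells. These were Col1a2 (3.49), Dcn (1.53), Pdgfra (1.59) and Col3a1, which read 8.42 ± 1.14 (SD, n = 5) against 4.25 ± 2.05 (SD, n = 6) and lay below the 40th percentile on 4 of the 6 arrays of CD34- cells, so that the size of its difference is not well measured. The other 4 (Col1a1, Lum, Dpt and Mfap5) were each under the 40th percentile on at least 3 of 5 CD34+ arrays. The summed linear signal of the list ran from 3249 to 8800 in CD34+ cells, against 531 to 950 in CD34- cells, and was highest on CD34+ array 1. Of 8 smooth muscle and pericyte markers 2 of 3 tested rose (Acta2 and Cspg4), with sums of 1405 to 4867 against 788 to 1123, while Myh11 and Cnn1 were under the 40th percentile on all CD34+ arrays. Of 7 tested myeloid and Langerhans cell genes 3 rose (H2-Aa, Csf1r and Adgre1), with sums of 4799 to 13217 against 3310 to 5822. In bulk samples, fewer cells of a type and less RNA per cell cannot be told apart, and the part of these cells in the signal of the 3 genes was not tested.

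The follicle bulge list moved the same way, and its 7 called genes of 8 all rose, with Krt15 (0.47) not called. The called genes were Lhx2 (4.02), Tbx1 (3.51), Wif1 (3.45), Lgr5 (2.60), Dkk3 (2.22), Sox9 (1.16) and Nfatc1 (1.02). The median difference over the 8 bulge genes was 2.41, against 2.54 over the 4 tested fibroblast genes. The sums of the bulge list were 51305 to 98049 on CD34+ and 33054 to 45605 on CD34- arrays. These sums are mostly the signal of Krt15 (mean log2 of 15.62 in CD34+ and 15.15 in CD34- cells), so they say little about the called genes. The next brightest gene of the list, Nfatc1, had means of 11.47 and 10.44. T cell genes went the other way. Of 5 tested, 4 fell in CD34+ cells, Cd3g and Cd3e among them, and the list's sums were 153 to 973 against 1460 to 2937. The part of T cells in the Itm2a signal was not tested. Endothelial cells also carry CD34. Of 8 endothelial markers 1 was bright enough to be tested, Kdr, which was not called (0.12), and Plvap, the next brightest, read 4.98 in CD34+ and 5.37 in CD34- cells. Cdh5, Tek, Tie1 and Esam were under the 40th percentile on every CD34+ array, Pecam1 (5.03 against 2.94) on 4 of 5 and Emcn (5.46 against 3.79) on 3 of 5. The list's sums were 208 to 609 on CD34+ and 207 to 334 on CD34- arrays, and the part of endothelial cells was not tested. In the mast cell list, Cpa3, Mcpt4 and Ms4a2 were likewise dim, Tpsab1 was not tested, and the 1 tested gene, Kit, fell by 1.33.

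In the dermal papilla list Rspo3 fell by 1.16, and Corin, Hey2 and Sox2 were under the 40th percentile on all CD34+ arrays. Crabp1 did not pass the filter on mean signal and was not tested, but its log2 signal was 7.71 in CD34+ and 2.87 in CD34- cells. Of the Schwann cell genes 1 of 4 tested fell, and neither Mbp nor Sox10 was called. Of the melanocyte genes 1 of 6 rose (Mitf, 1.42, with Dct at -0.50 not called). In the adipocyte list (Pparg; Fabp4 too dim) and the skeletal muscle list (Mylpf; Acta1 too dim) the 1 gene tested was not called. Of the 6 basal keratinocyte genes 2 fell on their brightest probe set (Itga6 by 0.53 and Trp63 by 0.38). Another probe set of Itga6 also fell (-1.04, limma adjusted p = 7.77e-04), while another of Trp63 rose by 0.52 (limma adjusted p = 0.013).

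**Figure D3:**
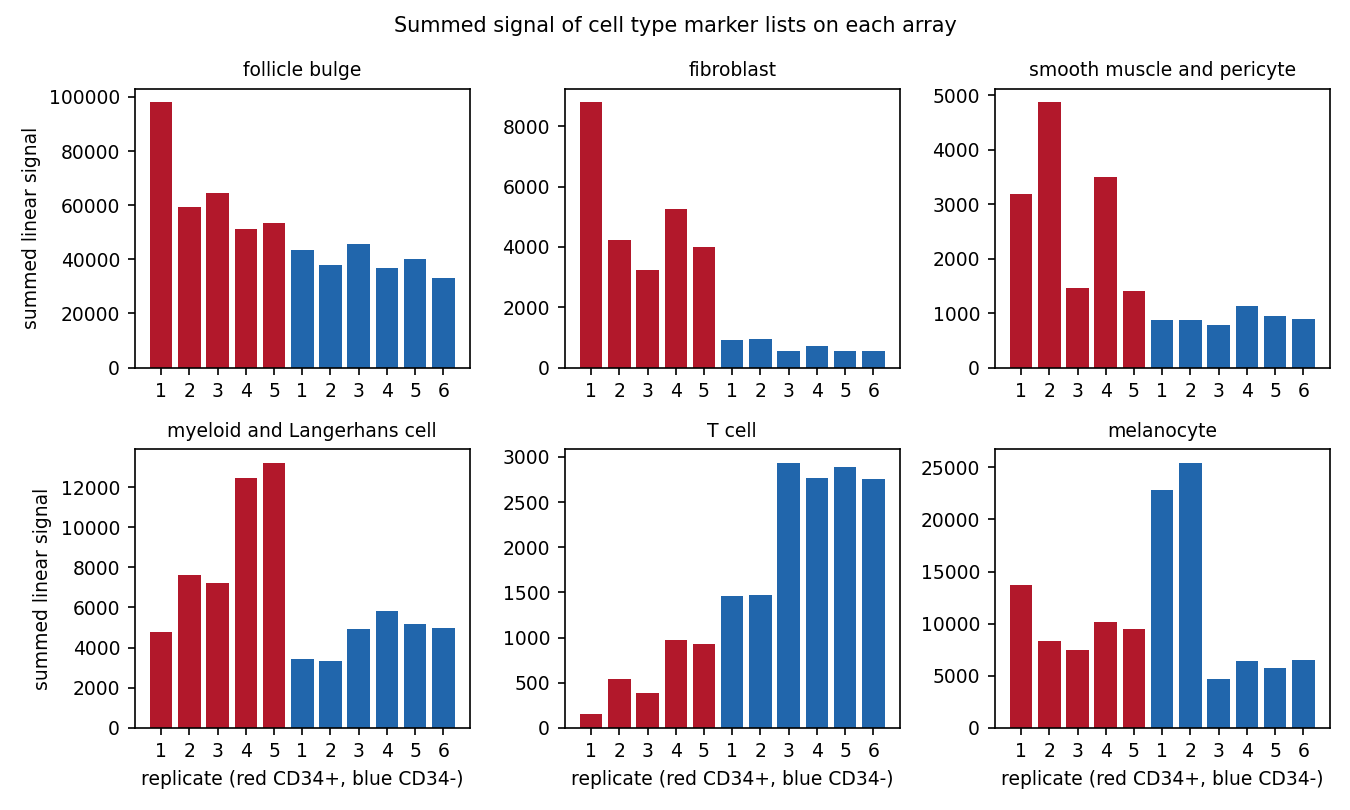
Summed linear signal (bars, vertical axis) of marker genes of 6 cell types on each array, red for 5 CD34+ and blue for 6 CD34- arrays, numbered by replicate. Fibroblast sums are 3249 to 8800 on CD34+ and 531 to 950 on CD34- arrays, T cell sums are higher on every CD34- array, and melanocyte sums stand out on CD34- arrays 1 and 2.

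Relatives and partners of the 3 genes were then read from a limma fit over 20967 probe sets, each list gene by its brightest probe set. In that fit 20.7% of probe sets (11.0% higher and 9.77% lower in CD34+ cells) and 22.1% of 11891 genes were called at an adjusted p under 0.05 (of genes, 11.6% higher and 10.5% lower), with a median log2 difference of 0.02. Of 82 tested genes in the 8 lists of relatives, 7 rose and 11 fell, and their median was -0.05. This share is near the background, so the lists as a whole do not stand apart by count.

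Of the other LNX and PDZRN ligases, Pdzrn3, the closest relative of Pdzrn4, rose. It read 12.35, 10.25, 10.74, 11.46 and 11.41 on CD34+ arrays 1 to 5 and 10.41, 10.73, 8.36, 8.61, 9.08 and 9.23 on CD34- arrays 1 to 6. The fractions overlapped through CD34- arrays 1 and 2, and the difference was 1.84 (SE 0.44, limma adjusted p = 0.011, n = 5 and 6). Without those 2 arrays it was 2.42 (SE 0.36, limma adjusted p = 0.00194). In the fit that also held the actin ratio it was 1.57 and was not called. Only 149 of 20967 probe sets were called in that fit, so the lost call says little about Pdzrn3. Unlike Pdzrn4, Pdzrn3 was well above the dim range in both fractions. Lnx1 (0.53, adjusted p = 0.108) and Lnx2 (-0.40, adjusted p = 0.106) did not pass the limma test. Of the partners, Numb, the Notch inhibitor bound by LNX proteins, fell by 0.60 (SE 0.12, limma adjusted p = 0.00371), Numbl differed by -0.01, and Musk and Dvl3 were too dim to be tested.

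In the cAMP pathway, where Sphkap anchors PKA, the adenylyl cyclase gene Adcy1 had by far the highest difference of the relatives. It read 11.37, 10.16, 9.85, 10.60 and 10.74 on CD34+ arrays and 6.09, 7.08, 6.49, 6.57, 6.81 and 5.94 on CD34- arrays, with no overlap. Its difference of 4.05 (SE 0.27, limma adjusted p = 2.60e-06), or 16.6-fold, passed the test in all 21 alternatives, with 3.45 as the lowest value. A second, dimmer Adcy1 probe set had a mean of 6.86 ± 0.68 (SD, n = 5) against 3.26 ± 0.88 (SD, n = 6), but did not pass the brightness filter. The phosphodiesterase gene Pde4b, which breaks down cAMP, fell by 0.77 on its brightest probe set (SE 0.22, limma adjusted p = 0.0236), while another of its probe sets rose by 0.57 (adjusted p = 0.0481). The other 10 of 12 tested genes of cAMP synthesis and breakdown were not called on their brightest probe set, though a dimmer one of Pde7a fell by 1.25 (limma adjusted p = 0.0361), and Adcy8, Adcy10, Pde3a and Pde7b were under the 40th percentile on all CD34+ arrays.

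Of 6 PKA subunit genes 1 rose and 1 fell. Prkar1a, a type I regulatory subunit of the kind that Sphkap binds, fell by 0.89 (SE 0.16, limma adjusted p = 0.00228), with 10.33, 10.21, 10.99, 10.85 and 10.71 on CD34+ arrays and 11.19 to 11.70 on CD34- arrays. Its next probe sets differed by -0.37 (adjusted p = 0.104) and 0.64 (adjusted p = 0.178), so the probe sets do not give 1 direction. Prkar1b, the other type I subunit, was not called on its brightest probe set (0.25), although another of its probe sets rose by 1.15 (limma adjusted p = 0.02). The catalytic subunit gene Prkaca rose by 0.50 (limma adjusted p = 0.0354), a call that held in 4 of 11 fits with 1 array left out, and its second probe set differed by 0.04. Of 9 tested A-kinase anchoring protein genes other than Sphkap, limma called 0 on the brightest probe set, while another probe set of Akap10 rose by 0.96 (adjusted p = 0.0165). Akap13 (0.29) alone was under 0.05 before adjustment (limma adjusted p = 0.0925). Akap11, a relative of Sphkap, differed by 0.04 (SE 0.16), and Akap2 by 1.13 (SE 0.58, adjusted p = 0.177).

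The genes of sphingosine kinase, the enzyme through which Sphkap was found, were not called on their brightest probe sets. Sphk1, which makes sphingosine 1-phosphate, differed by -0.08 (SE 0.13, limma adjusted p = 0.676). Sphk2 gave -0.51 (limma adjusted p = 0.19) on the brightest of its probe sets, while another rose by 0.575 (adjusted p = 0.0429). Of 27 tested genes of sphingosine phosphate and ceramide metabolism, 2 rose and 3 fell, with a median of 0.02. Spns2, the exporter of sphingosine 1-phosphate, rose by 1.13 (SE 0.28, limma adjusted p = 0.0129), with 8.67, 8.68, 8.85, 7.82 and 7.82 on CD34+ arrays and 6.44 to 7.78 on CD34- arrays. Degs1, which makes ceramide from dihydroceramide, rose by 0.63 (adjusted p = 0.0196), and another of its probe sets differed by 0.11. The ceramide kinase gene Cerk fell by 1.59 (SE 0.44, limma adjusted p = 0.0217). That value rested in part on CD34+ array 1, where Cerk read 6.13 against 8.34 to 9.21 on the other CD34+ arrays, and without that array it was -1.06. Without CD34- arrays 1 and 2 it was -1.63 and lost its call (limma adjusted p = 0.0584). The ceramide synthase gene Cers4 (-0.78, adjusted p = 0.0145) and Kdsr, an early enzyme of ceramide synthesis (-0.66, adjusted p = 0.0236), fell too, though Kdsr kept its call in only 8 of 11 fits with 1 array left out. A second probe set of each was called lower (-0.58 and -0.86), and a further one was not called (0.39 and 0.25). The ceramidase genes Acer3 and Asah2 were not called on their brightest probe set, but another probe set fell for Acer3 (-0.52, limma adjusted p = 0.0495) and rose for Asah2 (1.15, adjusted p = 0.00969).

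The closest relatives of Itm2a differed far less than Itm2a itself. Itm2c rose by 0.51 (SE 0.16, limma adjusted p = 0.0376), with signals of 12.28 to 13.03 in CD34+ and 11.58 to 12.24 in CD34- cells, and its call held in 4 of 11 fits with 1 array left out. With arrays set to equal medians it differed by 0.03. Itm2b, among the brightest genes on the array, gave -0.05 (limma adjusted p = 0.823) on the brightest of its probe sets, while another of nearly the same brightness rose by 0.63 (adjusted p = 0.0167). Of the other BRICHOS genes only Sftpc and Gkn3 were bright enough to be tested, and neither was called. Of 19 tested subunits of the vacuolar ATPase, the proton pump with which Itm2a has been reported to associate, 5 fell and 1 rose, with a median of -0.23. The 3 lower ones with the smallest p were Atp6v1c1 (-1.04, SE 0.14, limma adjusted p = 3.14e-04), Atp6v1a (-0.85, SE 0.15, adjusted p = 0.002) and Atp6v1h (-0.69, SE 0.14, adjusted p = 0.00565). Atp6v1b2 (-0.68, limma adjusted p = 0.0266, call kept in 8 of 11 fits with 1 array left out) and Atp6ap1 (-0.57) also fell on their brightest probe set. A dimmer probe set of Atp6v1b2 went the other way (1.16, limma adjusted p = 0.0412). Atp6v1d rose by 0.38 (limma adjusted p = 0.0248, call kept in 7 of 11 such fits) but turned to -0.10 when the arrays were set to equal medians. Another probe set of Atp6v1a also fell (-0.75), those of Atp6v1c1 were not called (-0.39 and -0.35), and one of Atp6v1h rose (0.99, adjusted p = 0.00865). Atp6v0b and Atp6v0a2 were not called on their brightest probe set, but another probe set fell for the first (-0.90, limma adjusted p = 0.00186) and rose for the second (1.01, adjusted p = 0.0473). Apart from Adcy1, no relative kept its call when the actin ratio was in the fit. Calls were lost over all probe sets there, with 149 of 20967 called against 4344 without the ratio. The ratio did not overlap between the fractions, so this fit cannot separate it well from the contrast. Nothing about the relatives is read from these lost calls.

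**Figure D4:**
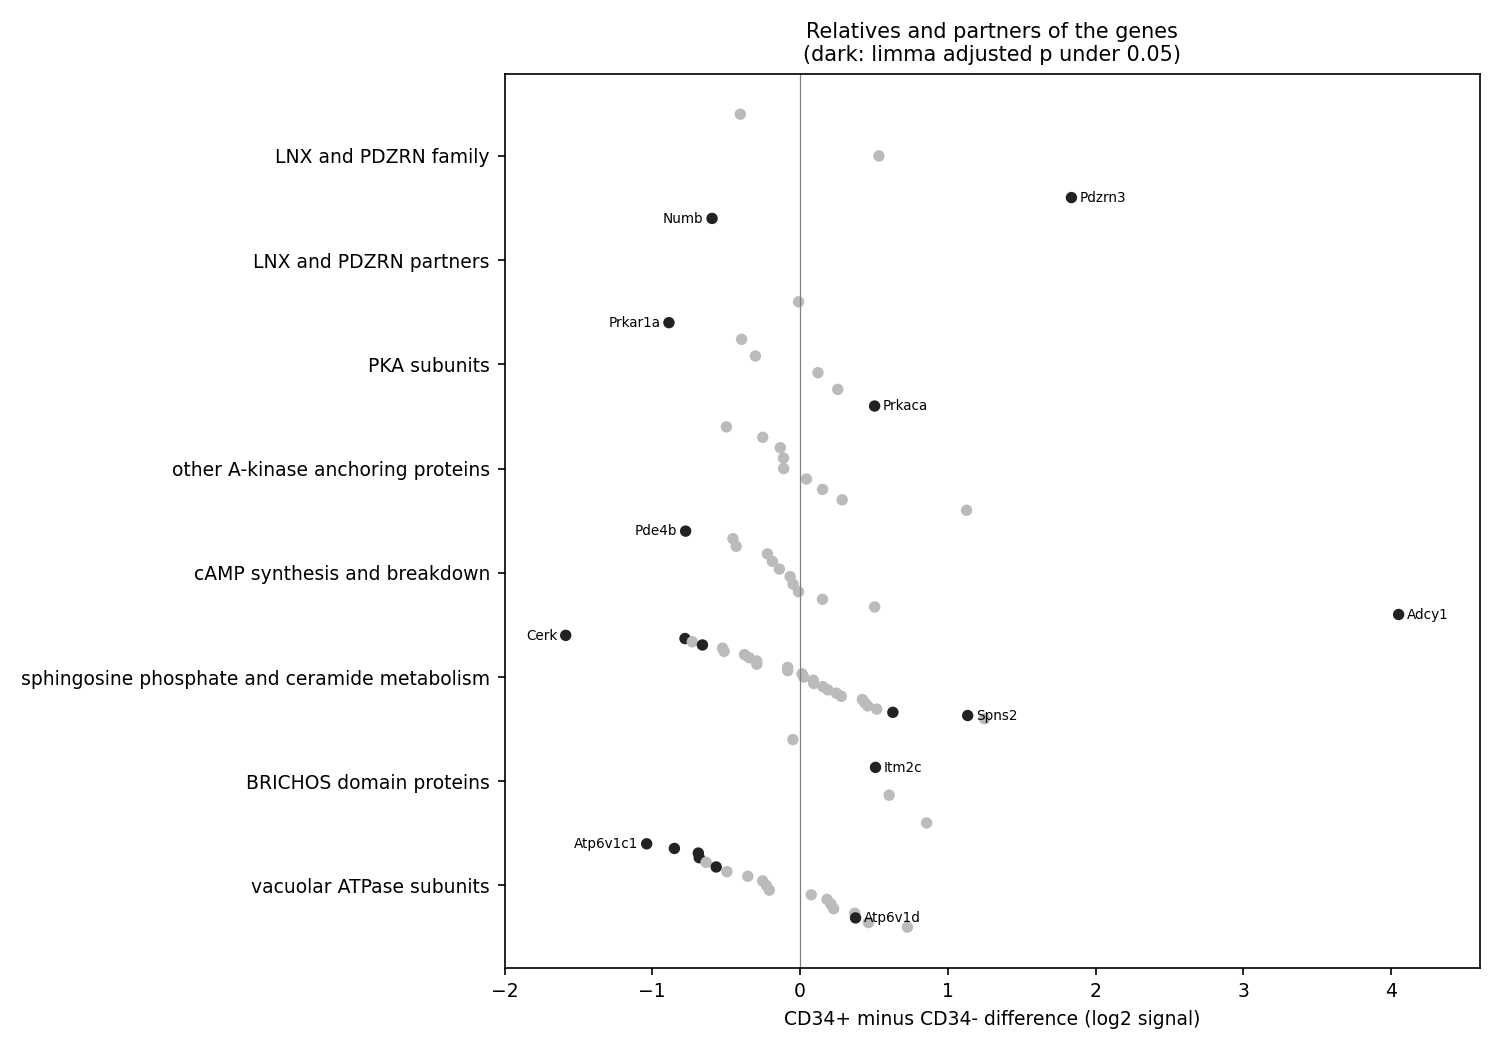
CD34+ minus CD34- log2 difference (horizontal axis) of each tested gene in 8 lists of relatives and partners, by its brightest probe set; dark points passed limma at an adjusted p under 0.05, and the highest and lowest of them in each list are named. Adcy1 (4.05) and Pdzrn3 (1.84) have the highest differences among the called genes, and all 5 called genes under 0 in the vacuolar ATPase list lie between -1.04 and -0.57.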

How the data were processed

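The authors deposited 1 log2 value per probe set and array, computed by MAS5 (submitters' processing notes, which name no version or setting). The log2 scale was inferred from the values: as linear signal, each array had a mean of 500.002 to 500.004 once 2% of probe sets were trimmed at each end. Values were used as deposited, and the number of arrays limits the precision. No detection calls were used.

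Of 45101 probe sets (64 controls), 34945 had 1 gene symbol, 932 had several and 9160 others had none. Symbols of 34741 were updated through gene identifiers (GRCm38.p6). The dimmest 40% by mean signal were left out, which left 20967 probe sets.

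CD34+ and CD34- arrays were compared with limma 3.58.1 in R 4.3.3 (linear model, empirical Bayes with intensity trend, Benjamini-Hochberg over all 20967 probe sets), which was checked on simulated data. Every adjusted p of a difference comes from limma. Correlations used exact permutation within fractions (86400 permutations) in Python 3.11.15, numpy 2.4.6.

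Genes were named by rule: the 3 genes, Cd34, Krt5, Krt14, called relatives with the smallest p (at most 3 per direction and list), 9 fixed relatives, the 2 brightest markers of each cell type, the 5 genes most like each of the 3, and the 8 highest differences. Other probe sets, and Numbl, Musk, Dvl3, Prkar1b, Akap2, Akap10, Akap13, Pde7a, Acer3, Asah2, Atp6v0a2, Atp6v0b, Sftpc, Gkn3, further cell type markers and dim list genes, were picked with their values in view. The 3 genes and all lists were chosen with earlier results of these data known. 12 listed genes had no probe set with 1 symbol.

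Alternatives were quantile normalization, equal medians, dim values raised to the 40th percentile, an offset of 50, no filter, 1 probe set a gene, array weights, the actin ratio as a covariate, a replicate block and leaving out arrays. Leaving out both CD34- arrays 1 and 2, and raised values in the correlations between the 3 genes, were added after the data were seen.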

Additional observations from a re-analysis of the deposited data

Results flagged for a closer look

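A fraction and a probe set were combined in 12 ways (the 5 probe sets and Cd34). In 3 of these an array lay far from the rest of its fraction, each time a CD34- array. Pdzrn4 and Sphkap were flagged on the same array, so the 3 are not independent and are not set against a chance rate. The Pdzrn4 signal on CD34- array 4 was 1.825 against 4.76 to 5.73 on the others. The signal of the brighter Sphkap probe set was also lowest on that array, at 4.736. The second Itm2a probe set (1451047_at) read 4.509 on CD34- array 3, while the brighter one read 6.72 there, its lowest value. Cd34 itself was lowest on CD34- arrays 3 and 4. All of these values lay under the 40th percentile except that of the brighter Itm2a probe set.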

How the results depend on the processing

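The differences of the 4 brighter probe sets kept their direction in all alternatives. That of Pdzrn4 went to 5.20 with dim values raised to the 40th percentile and to 4.92 with an offset of 50, that of 1454926_at of Sphkap to 3.94 with the offset, and the dim Sphkap probe set turned to -0.39 with the actin ratio as a covariate. Leaving out single arrays gave 5.95 to 6.80 for Pdzrn4, 4.51 to 5.17 for 1454926_at, 0.63 to 1.81 for the dim probe set, 4.56 to 5.35 for 1423608_at and 3.16 to 3.74 for 1451047_at.

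Over all probe sets 4344 were called (2971 to 4580 with 1 array left out), 8914 with equal medians, 149 with the actin ratio as a covariate, 2465 without both CD34- arrays 1 and 2 and 2821 with 1 probe set a gene, where fewer were tested. Of the relatives 18 were called (13 to 21 with 1 array left out), 40 with equal medians and 1 with the actin ratio. Of called probe sets 52.9% were higher in CD34+ cells, 38.4% after quantile normalization and 7.57% with equal medians, while Atp6v1d turned to -0.10; these scalings moved the median difference from 0.02 to -0.09 and -0.46. The cause of the other moves was not tested.

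Within-fraction correlations with Cd34 ranged, with 1 array left out, over 0.70 to 0.90 for Pdzrn4, 0.63 to 0.84 for 1454926_at (not called without CD34+ array 3, r = 0.67, adjusted exact permutation p = 0.054), 0.66 to 0.77 for 1423608_at and 0.78 to 0.93 for 1451047_at. By Spearman rho (0.55) 1454926_at and 1423608_at lost their call. Without the 2 arrays farthest from the median, r was 0.81 for Pdzrn4, 0.82 for 1454926_at, 0.80 for 1423608_at and 0.82 for 1451047_at, none called. With dim values raised, r was 0.93, 0.93, 0.87 and 0.78 for these probe sets and turned to -0.30 for the dim one (0.20 to 0.57 with 1 array left out). Between the genes, r with 1 array left out was 0.82 to 0.94 for Pdzrn4 and Sphkap, 0.76 to 0.91 for Sphkap and Itm2a and 0.53 to 0.94 for Pdzrn4 and Itm2a.

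The labels do not say whether equal replicate numbers mark a shared animal or preparation. Deviations of same-numbered arrays correlated at 0.02 to 0.18, and 0 of 5 CD34+ arrays were closest to their own number. Technical spread can hide a pairing, so these values cannot settle that question. With the replicate number as a block, 3034 probe sets and 14 relatives were called, and the differences were 6.73 for Pdzrn4, 4.96 for 1454926_at, 1.23 for the dim Sphkap probe set, 4.99 for 1423608_at and 3.60 for 1451047_at. On CD34- arrays, signals of Cd34, Pdzrn4 and Sphkap near background limit the size of their differences.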
